A study of Mus musculus with 6 samples.

Results

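The genes described here encode 8 components of the dystrophin-glycoprotein complex: Dmd, Utrn, Dag1, Sgca, Sgcb, Sgcd, Dtna and Sspn. They were found in the deposited table by their symbols alone, and all 8 were among its 23367 entries. The table holds RNA-seq of polyA RNA from the gastrocnemius, a calf muscle of mostly fast fibers, of wild type mice of the inbred FVB strain. The stages were embryonic day 18.5 (E18.5), postnatal day 2 (PN2), PN14, PN28 and adult at 22 weeks, with no treatment at any of them. PN14 had 2 libraries and each other stage had 1. The E18.5 library pooled males and females and the others came from males, and the RNA at E18.5 and PN2 was pooled from several mice. Sex cannot be told apart from stage in comparisons with E18.5, nor can pooling in comparisons of E18.5 or PN2 with PN14, PN28 or the adult.

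The dystrophin-glycoprotein complex spans the sarcolemma and links the actin cytoskeleton of the muscle fiber to the basal lamina. Dystrophin, from Dmd, binds actin inside the fiber and beta-dystroglycan at the membrane, and alpha-dystroglycan, made from the same Dag1 precursor, binds laminin outside. The sarcoglycans and sarcospan form a membrane subcomplex that holds dystroglycan in place, and the dystrobrevins and syntrophins dock signaling proteins on the inner face. Utrophin, the autosomal relative of dystrophin, lies along the whole sarcolemma of fetal fibers and is concentrated at the neuromuscular and myotendinous junctions of mature muscle. Loss of dystrophin causes Duchenne muscular dystrophy, and loss of a sarcoglycan causes a limb-girdle muscular dystrophy.

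The start regions of Dmd, Utrn and Sgca are shown because shifts in the balance of these genes are described below. Each window runs from 250 bases before to 50 bases after a RefSeq start site, taken from a RefSeq table of build GRCm38.p6, and each matched the mm9 genome at a single place. Capitals mark E-boxes (CANNTG, the binding motif of MyoD-type factors), the MEF2 consensus and the CArG box, the motif of serum response factor, all searched on both strands and allowed to overlap. The Dmd window is at chrX:80193959-80194258 on the plus strand and starts the full-length muscle transcript. The Utrn window is at chr10:12581484-12581783 on the minus strand, inside the annotated gene. Its start site is at 12581533, whereas the annotated gene begins at 12589163. The window therefore does not show the outermost start of Utrn. The Sgca window is at chr11:94837592-94837891 on the minus strand.
Dmd: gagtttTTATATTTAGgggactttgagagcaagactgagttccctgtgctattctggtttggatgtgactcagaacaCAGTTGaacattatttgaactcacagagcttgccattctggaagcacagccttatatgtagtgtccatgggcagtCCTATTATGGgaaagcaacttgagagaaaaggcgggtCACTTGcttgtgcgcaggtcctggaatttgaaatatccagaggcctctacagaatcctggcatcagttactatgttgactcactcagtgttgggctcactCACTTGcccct
Utrn: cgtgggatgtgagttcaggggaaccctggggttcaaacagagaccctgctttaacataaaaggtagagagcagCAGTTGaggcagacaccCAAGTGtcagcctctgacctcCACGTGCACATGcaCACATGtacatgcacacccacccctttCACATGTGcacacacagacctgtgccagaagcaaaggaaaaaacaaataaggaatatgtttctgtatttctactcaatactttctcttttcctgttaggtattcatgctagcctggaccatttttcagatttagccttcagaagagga
Sgca: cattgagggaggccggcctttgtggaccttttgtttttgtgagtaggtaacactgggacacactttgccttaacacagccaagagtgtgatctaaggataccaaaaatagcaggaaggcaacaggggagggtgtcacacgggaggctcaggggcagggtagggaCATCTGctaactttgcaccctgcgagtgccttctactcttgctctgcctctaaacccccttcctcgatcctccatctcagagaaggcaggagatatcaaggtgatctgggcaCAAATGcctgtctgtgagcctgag

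The Dmd window held a MEF2 consensus at -244 bases from the start, a CArG box at -98 and 3 E-boxes. Among all 32851 windows of the table, 3.2% held the MEF2 consensus, 1.6% the CArG box and 72.3% an E-box. A further Dmd window, at chrX:82293384-82293683, where a shorter transcript of the RefSeq table starts, held none of these motifs. The Utrn window held 7 E-boxes, some of them overlapping, and the Sgca window held 2. The 7 member genes searched had 10 windows in the table, and none of the 10 held CAGCTG or the ETS-type motif TTCCGG, which occur in 16.3% and 14.9% of all windows. The outermost annotated start of Utrn was not among these windows, so its motifs were not searched. A match of letters is a description and not a binding site.

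Both units used below come from the same reads. FPKM (fragments scaled to transcript length and library size) is per length and was used to compare levels between genes, and CPM (counts scaled to library size only) corrected with the TMM method was used to test changes between stages. The libraries held between 125402932 and 157868359 counts on genes, so counting error was small for the members, whose lowest count was 1980. The top 20 genes held 16.0% of all counts in the E18.5 library and 36.9% in the adult one. Relative to TMM scaling, scaling by library size alone moved the median log2 difference of all genes from -0.05 to -1.08 between E18.5 and adult and from -0.01 to -0.66 between PN2 and PN14. FPKM carries this shift too. Directions that depend on it are given under each scaling, and ratios between genes of the same library do not depend on it.

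Dystroglycan gave the highest level of the 8 genes around birth and alpha-sarcoglycan the highest in the adult. At E18.5, the FPKM ran from Dag1 at 134.69 through Dtna at 40.24, Sgcb at 38.34, Sspn at 32.95, Sgca at 32.02, Sgcd at 18.21 and Utrn at 13.33 to Dmd at 12.17. In the adult, the order was Sgca at 101.25, Dag1 at 55.47, Sgcb at 30.49, Dtna at 28.24, Sgcd at 15.51, Dmd at 14.13, Sspn at 11.87 and Utrn at 3.93. The only stage with a measured spread was PN14, where the ranges of Sgca and Dag1 overlapped, as did those of Dtna and Sspn. The other neighbors in the PN14 order did not overlap, although Dmd and Sgcd lay close, at a lowest Dmd FPKM of 11.86 and a highest Sgcd FPKM of 11.71.

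**Figure D1:**
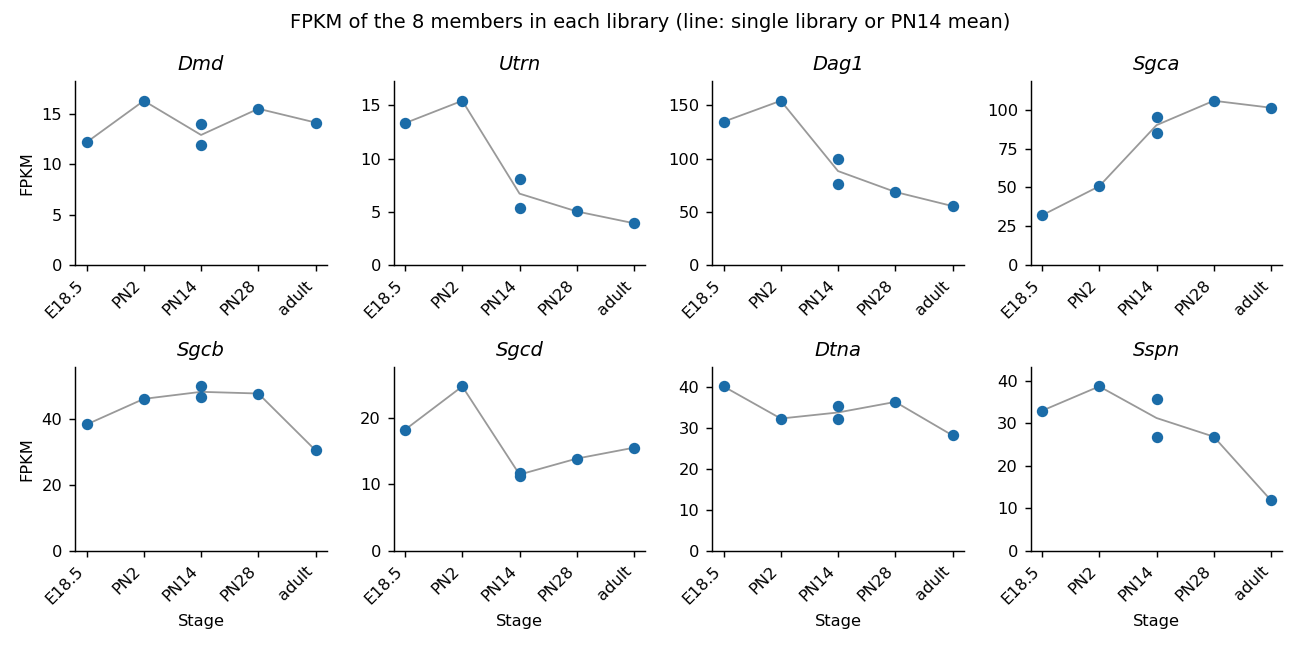
FPKM of the 8 genes in each of the 6 libraries, with a linear axis from 0 for each gene, 1 point per library and a line through the stages and the PN14 mean. Sgca goes from 32.02 at E18.5 to 101.25 in the adult, while Utrn goes from 13.33 to 3.93.

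A gene was called changed at an adjusted p under 0.05 and at least a 2-fold difference with edgeR's quasi-likelihood test, adjusted with the Benjamini-Hochberg method over 16882 genes. All 8 members passed the filter on low counts. The spread in this test came from the PN14 pair, and the test assumes that the single libraries of the other stages vary as that pair does. From E18.5 to PN2, 0 of 8 members were called, against 0.0296% of all genes, and 0 had an unadjusted p under 0.05. From PN2 to PN14, 1 of 8 was called, higher, against 23.0% of all genes called and 11.8% called higher. From PN14 to PN28, 0 of 8 were called, against 0.0178% of all genes, and 1, Sgcd, had an unadjusted p under 0.05. From PN28 to adult, 0 of 8 were called, against 0.521% of all genes, and 1, Sspn, had an unadjusted p under 0.05. DESeq2 and edgeR's exact test each called 1 member, Sspn, from PN28 to adult, and 0 in the intervals E18.5 to PN2 and PN14 to PN28.

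Over the longer intervals, 2 of 8 members were called from E18.5 to adult, both higher, against 44.9% of all genes called and 21.4% called higher. From PN2 to PN28, 2 of 8 were called, both higher, against 27.0% of all genes called and 14.3% called higher. The median log2 difference of the members from E18.5 to adult was 0.74, beside -0.05 for all genes. Over the other intervals it was 0.25 (E18.5 to PN2), 0.34 (PN2 to PN14), 0.29 (PN14 to PN28), -0.18 (PN28 to adult) and 0.59 (PN2 to PN28), beside -0.01 to -0.04 for all genes.

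Scaled by library size alone, 4 of 8 members were called from E18.5 to adult, against 53.6% of all genes. Of these, 1 was higher and 3 were lower, against 7.98% and 45.6% of all genes. From PN2 to PN14, 2 of 8 were then called, both lower, against 34.5% of all genes called and 29.4% called lower. From PN28 to adult it was 1 of 8, lower, against 5.14% of all genes called and 4.31% called lower. From PN2 to PN28 it was 3 of 8, 1 higher and 2 lower, against 42.4% of all genes called, 5.05% called higher and 37.3% called lower. The median log2 difference of the members from E18.5 to adult was -0.28 on this scale, beside -1.08 for all genes. The change of scaling moves all genes of a comparison by nearly the same amount, so the gap between these medians stays as it was by construction.

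**Figure D2:**
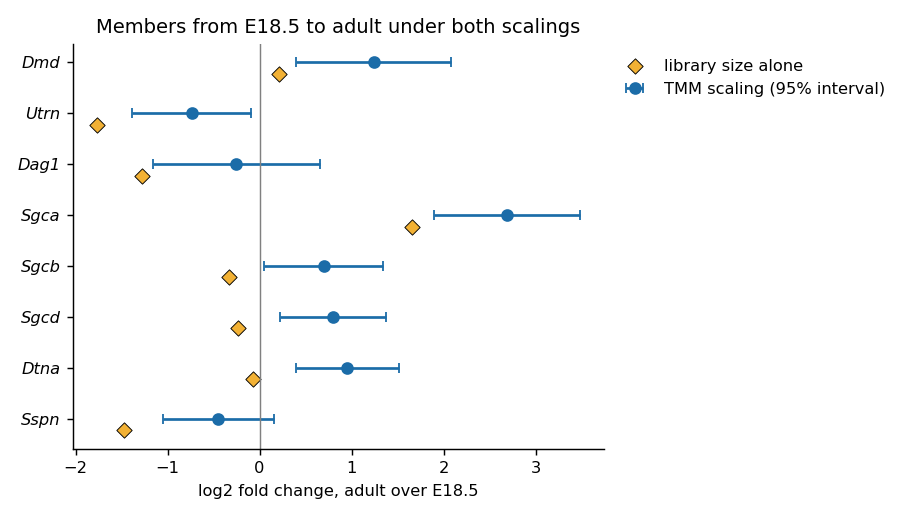
Log2 difference of each of the 8 genes from E18.5 to adult on the x axis, with TMM scaling (circles, with 95% intervals from edgeR's quasi-likelihood fit) and with library size alone (diamonds). Sgca stands right of 0 under either scaling, at 2.69 and 1.66, Utrn, Dag1 and Sspn lie left of 0 under either, and Sgcb, Sgcd and Dtna change side.

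Dystrophin is the rod that ties actin to the membrane. The Dmd gene lies at chrX:80194209-82451480 of mm9 on the plus strand and its longest annotated transcript has 79 exons. Dmd FPKM was 12.17 at E18.5, 16.29 at PN2, 13.94 and 11.86 at PN14, 15.50 at PN28 and 14.13 at the adult stage. The highest value was at PN2 and the lowest in the second PN14 library, so the older libraries lay within the range of the younger ones. With TMM scaling, Dmd stood at 116 CPM at E18.5 and 274 CPM in the adult, a log2 difference of 1.24 ± 0.34 (SE) with an adjusted p of 0.026 by edgeR's quasi-likelihood test. The log2 difference was 0.22, and not called, with library size alone. Whether Dmd was called therefore depended on the scaling.

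Utrophin is the other large actin-binding protein that dystroglycan can bind. The Utrn gene lies at chr10:12101986-12589163 of mm9 on the minus strand. Utrn FPKM was 13.33 at E18.5, 15.43 at PN2, 5.33 and 8.09 at PN14, 5.04 at PN28 and 3.93 at the adult stage. Every library from PN14 on was below both perinatal libraries. On TMM-scaled CPM the log2 difference from E18.5 to adult was -0.74 ± 0.26 (SE), with an adjusted p of 0.056 by edgeR's quasi-likelihood test. From PN2 it was -0.56 to PN14 and -0.73 to PN28, with adjusted p of 0.10 and 0.080 by edgeR's quasi-likelihood test. When scaled by library size alone, the 3 log2 differences were -1.76, -1.20 and -1.61, and all 3 were called lower. Utrn was lower under either scaling, and whether it was called depended on the scaling.

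The balance of Dmd and Utrn within a library needs no scaling between libraries. The ratio of Dmd FPKM to Utrn FPKM was 0.913 at E18.5, 1.06 at PN2, 2.62 and 1.47 at PN14, 3.08 for PN28 and 3.60 at the adult stage. The pair was close to parity around birth, and Dmd was the higher of them in every library from PN2 on. The adult ratio was 3.94-fold that at E18.5. The PN14 libraries differed 1.78-fold from each other (2.04 ± 0.81, SD, n = 2), so their mean is loosely placed between the perinatal and the older libraries. Dmd made up 47.7% of the summed FPKM of the pair at E18.5, 51.4% at PN2, 72.3% and 59.4% at PN14, 75.5% at PN28 and 78.2% at the adult stage. The ratio itself was not tested, since only PN14 was replicated.

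**Figure D3:**
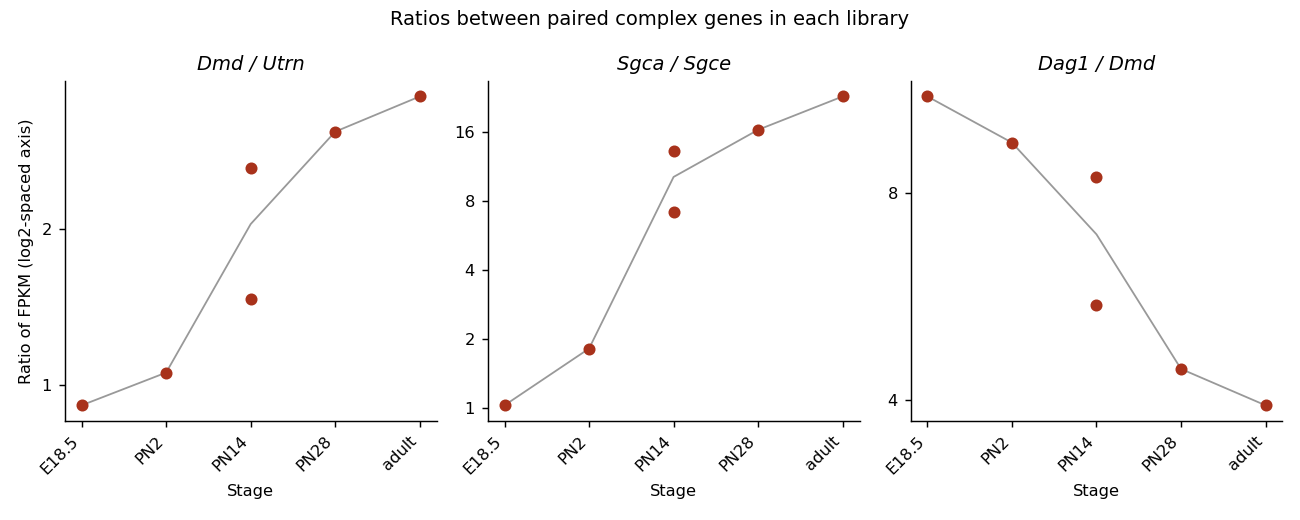
Ratio of FPKM of Dmd to Utrn, Sgca to Sgce and Dag1 to Dmd in each library (points), on log2 axes, with lines through the stages and the PN14 mean. The ratios of Dmd to Utrn and of Sgca to Sgce are higher in every library from PN14 on than in the E18.5 and PN2 libraries, with PN14 points 1.78-fold and 1.84-fold apart, and the ratio of Dag1 to Dmd is lower in them.

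The summed RNA of cell type markers also differed between the libraries. The summed FPKM of 4 endothelial markers (Pecam1, Cdh5, Tek and Kdr) was 150.5 at E18.5, 153 at PN2, 135 and 207 at PN14, 98.7 at PN28 and 53.3 at the adult stage. With TMM scaling the sums were 406, 411, 627 and 801, 492 and 296 CPM in the same order. On this scale PN28 and both PN14 libraries were above the perinatal ones. From E18.5 to adult, 0 of the 4 were called with TMM scaling, against 44.9% of all genes. Their median log2 difference was -0.45. Library size alone called all 4 lower, against 45.6% of all genes. The Schwann cell markers Sox10 and Mbp summed to 59.5 and 237 FPKM in the PN14 libraries, against 20.2 to 101 in the others. On FPKM, the second PN14 library thus held more of the endothelial and Schwann cell lists, as well as more Utrn and more Dag1, than the first. The log2 difference of the second from the first was 0.60 for Utrn and 0.38 for Dag1 on FPKM. On TMM-scaled CPM it was 0.34 and 0.12. Muscle fiber markers (Acta1, Ckm, Des, Tnnt3, Mylpf and Pygm) summed to 32736 FPKM at E18.5, 115052 and 93796 in the first and second PN14 libraries and 97724 in the adult. Fibroblast markers (Pdgfra, Col1a1, Col3a1 and Dcn) summed to 4303 FPKM at E18.5 and 420 in the adult. Among the fibroblast markers, Dcn went from 393.19 to 329.04 FPKM but from 496 to 832 CPM with TMM scaling. The other fibroblast markers were lower in the adult on either scale. Smooth muscle and pericyte markers (Acta2, Myh11, Cnn1, Pdgfrb and Rgs5) summed to 166 and 314 FPKM in the PN14 libraries and to 291 at E18.5 and 68.5 in the adult. Most of this sum at E18.5 was Acta2, which went from 233.05 to 22.06 FPKM in the adult, while Rgs5 FPKM went from 21.41 to 32.5. The median log2 difference of this list from E18.5 to adult was -0.18 with TMM scaling. From E18.5 to adult, the summed FPKM of satellite cell markers went from 59.6 to 6.82, of adipocyte markers from 1.45 to 60.3, of macrophage markers from 26.5 to 8.16, of cartilage and bone markers from 101 to 0.17 and of neuromuscular junction genes from 149 to 50.7. The sums of TMM-scaled CPM went the same way for each of these lists. They went from 115 to 26.9 for satellite cell markers and from 52.5 to 34.4 for macrophage markers. The junction genes went both ways, with 2 of 5 called higher and 1 lower, against 44.9% of all genes called and 21.4% called higher. Their median log2 difference was 0.36. Chrng FPKM went from 83.6 to 0.13 and Chrne FPKM from 0.52 to 15.42. The part of cell makeup in the results was not tested. In whole muscle, fewer cells of a type and less RNA per cell cannot be told apart.

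Dystroglycan is the laminin receptor of the complex. The Dag1 gene lies at chr9:108108286-108166255 of mm9 on the minus strand. Dag1 FPKM was 134.69 at E18.5, 154.42 at PN2, 76.64 and 100.08 at PN14, 68.75 at PN28 and 55.47 at the adult stage. The 4 libraries from PN14 on were below the perinatal ones on this scale. With TMM scaling, the log2 difference from E18.5 to adult was -0.25 ± 0.37 (SE), with an adjusted p of 0.59 by edgeR's quasi-likelihood test, and its 95% interval ran from -1.16 to 0.65. It was -1.28, and called, with library size alone. Set against dystrophin, the ratio of Dag1 FPKM to Dmd FPKM was 11.1 at E18.5, 9.48 at PN2, 5.50 and 8.44 at PN14, 4.44 at PN28 and 3.93 at the adult stage. There was thus less dystroglycan mRNA per dystrophin mRNA in the PN28 and adult libraries than in any younger one.

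Alpha-sarcoglycan, from Sgca, is a sarcoglycan restricted to striated muscle and showed the largest difference of the 8 genes between E18.5 and adult with TMM scaling. The gene lies at chr11:94824105-94837641 of mm9 on the minus strand. Sgca FPKM was 32.02 at E18.5, 50.75 at PN2, 95 and 85.07 at PN14, 105.73 at PN28 and 101.25 at the adult stage. The perinatal libraries lay well below all later ones, and the PN14 pair differed little. With TMM scaling, Sgca rose 6.44-fold from E18.5 to adult, a log2 difference of 2.69 ± 0.32 (SE) with an adjusted p of 0.0020 by edgeR's quasi-likelihood test. It rose by 1.5 ± 0.28 (SE) on the log2 scale from PN2 to PN14, with an adjusted p of 0.015 by that test. From PN28 to adult the log2 difference was 0.07, with a 95% interval from -0.67 to 0.82. Library size alone still left Sgca called higher from E18.5 to adult, at 1.66, and from PN2 to PN28, at 1.06, but at 0.83 it was not called from PN2 to PN14.

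Beta-sarcoglycan and delta-sarcoglycan form the core that assembles before the other sarcoglycans join. The Sgcb gene, at chr5:74023988-74038983 of mm9 on the minus strand, had 38.34 FPKM at E18.5, 46.12 at PN2, 46.61 and 49.91 at PN14, 47.75 at PN28 and 30.49 at the adult stage. On FPKM it was nearly level from PN2 to PN28 and lowest in the adult. With TMM scaling its log2 difference from PN2 to PN28 was 0.94, with a 95% interval from 0.28 to 1.59 and an adjusted p of 0.042 by edgeR's quasi-likelihood test, under 2-fold, and with library size alone it was 0.05. TMM-scaled CPM of Sgcb was lowest at E18.5, at 97.2, against 157 in the adult. Its log2 difference from E18.5 to adult was 0.70 with TMM scaling (adjusted p = 0.068, edgeR's quasi-likelihood test) and -0.33 with library size alone. The Sgcd gene, at chr11:46709755-47802471 of mm9 on the minus strand, had 18.21 FPKM at E18.5, 24.73 at PN2, 11.71 and 11.22 at PN14, 13.87 at PN28 and 15.51 at the adult stage. On FPKM its lowest libraries were the PN14 pair, which differed little from each other. On TMM-scaled CPM the pair stood at 18.77 and 15.03, on either side of E18.5 at 16.88. From PN2 to PN14 the log2 difference of Sgcd was -0.44 with TMM scaling (adjusted p = 0.14, edgeR's quasi-likelihood test) and -1.11, called, with library size alone. From E18.5 to adult it was 0.79 with TMM scaling (adjusted p = 0.032, edgeR's quasi-likelihood test, under 2-fold) and -0.23 with library size alone.

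Sgca has a close relative, Sgce, which encodes epsilon-sarcoglycan, a protein of wider tissue distribution that can take the place of alpha-sarcoglycan in the subcomplex. Sgce FPKM was 31.18 at E18.5, 27.92 at PN2, 7.18 and 11.81 at PN14, 6.44 at PN28 and 4.41 at the adult stage, and its log2 difference from E18.5 to adult of -1.79 was called. The ratio of Sgca FPKM to Sgce FPKM was 1.03 at E18.5, 1.82 at PN2, 13.2 and 7.20 at PN14, 16.4 at PN28 and 23.0 at the adult stage, a 22.4-fold span. These genes started level and were separated by more than the PN14 spread of 1.84-fold in every library from PN14 on. The FPKM of Sgca, Sgcb, Sgcd and Sgce summed to between 120 and 174 in the 6 libraries, while the share of Sgca in this sum went from 26.7% at E18.5 to 66.8% in the adult and that of Sgce from 26.0% to 2.91%. The share of Sgcb was 32% at E18.5 and 20.1% in the adult, and that of Sgcd 15.2% and 10.2%.

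**Figure D4:**
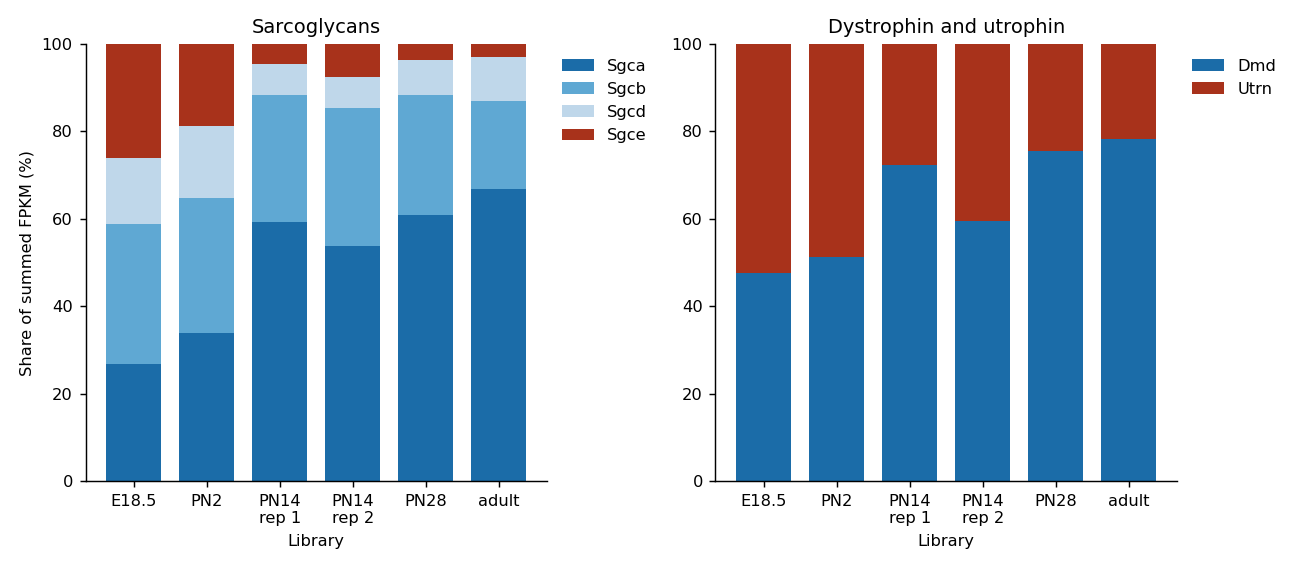
Stacked bars of the share of each gene in the summed FPKM of the 4 sarcoglycans given and of Dmd with Utrn in each library, in percent. Sgca takes 26.7% at E18.5 and 66.8% in the adult, and Dmd goes from 47.7% to 78.2% of its pair.

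Sarcospan is the small tetraspan protein that binds the sarcoglycans. The Sspn gene lies at chr6:145880161-145913743 of mm9 on the plus strand and shares 69 exon bases with an antisense transcript, Gm15705. Whether the counting used strand is not given in the sources used here, so reads in those bases cannot be told apart. Sspn FPKM was 32.95 at E18.5, 38.68 at PN2, 26.73 and 35.75 at PN14, 26.85 at PN28 and 11.87 at the adult stage. The adult library was below all the others, which overlapped across stages. From PN28 to adult the log2 difference of Sspn was -1.04 ± 0.25 (SE), with an adjusted p of 0.12 by edgeR's quasi-likelihood test. DESeq2 and edgeR's exact test each called it lower at this step, as did the quasi-likelihood test with library size alone, where the log2 difference was -1.18.

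Alpha-dystrobrevin, from Dtna, binds dystrophin and anchors syntrophins and, through them, signaling proteins. The gene lies at chr18:23573916-23818215 of mm9 on the plus strand. Dtna FPKM was 40.24 at E18.5, 32.37 at PN2, 32.21 and 35.50 at PN14, 36.44 at PN28 and 28.24 at the adult stage. On FPKM, the E18.5 library was the highest and the adult one the lowest, and this order is not kept with TMM scaling, where the adult was higher than E18.5 also per length, as given below. The length over which Dtna counts were spread was not constant. Dividing the deposited expected count by FPKM and by the counts on genes gives the implied length, an average over isoforms weighted by their estimated abundance. For Dtna it was 2149 bases at E18.5, 2312 at PN2, 2788 and 2719 at PN14, 2814 at PN28 and 2915 at the adult stage, a range of 35.6%. The 4 libraries from PN14 on were all longer than the perinatal ones, and the PN14 pair differed by less than any step between E18.5, PN2 and PN14.

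For the other 7 members the implied length varied by at most 0.172% across libraries. It was between 13836 and 13846 bases for Dmd, so the table gives no view of the short Dmd isoforms. Among 5562 genes with at least 5 FPKM in every library, the median range of implied length was 0.139%, 2.77% of genes ranged by over 5%, and 15 genes, or 0.27%, ranged at least as widely as Dtna. The implied length can move only where the gene model used for counting holds transcripts of unlike length, which was not checked. A constant value therefore does not show constant isoform use, and these shares do not measure how rare isoform shifts are. The implied length moves with the mix of RefSeq transcripts assigned to the gene. The GENCODE annotation of mm9 lists 9 coding transcripts from 1464 to 6513 bases for Dtna, but these are not the models used for counting. The 2 annotations can differ. For Dag1 the implied length at E18.5 was 5428 bases, and the longest GENCODE coding transcript has 4415. Gene-level values do not show which Dtna transcripts moved.

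**Figure D5:**
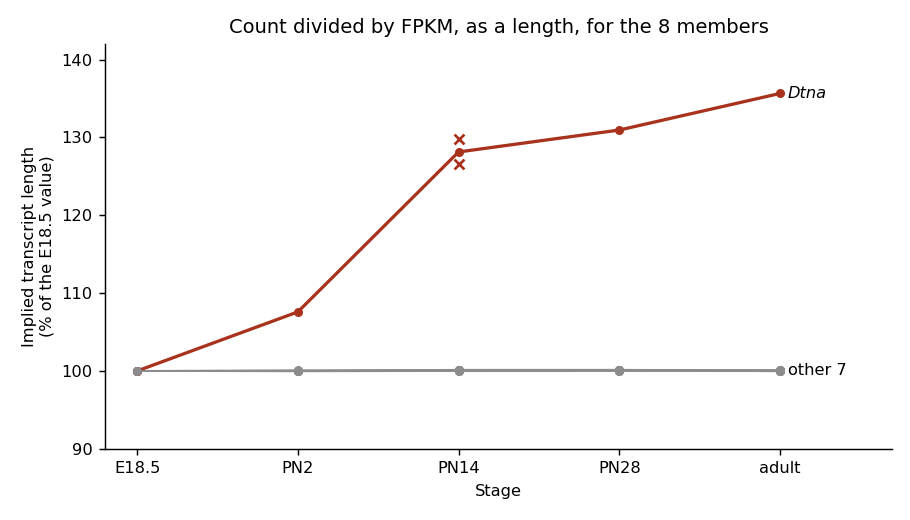
Implied transcript length of each of the 8 genes in each library, as a percentage of its E18.5 value, with lines through the stage means and crosses for both PN14 libraries of Dtna. Dtna lengthens to 2915 bases in the adult from 2149 at E18.5, while the other 7 genes stay within 0.172%.

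The length shift bears on the test of Dtna, which uses counts. From PN2 to PN28 the log2 difference with TMM scaling was 1.34 ± 0.23 (SE), with an adjusted p of 0.012 by edgeR's quasi-likelihood test, and Dtna was called. Of this, 0.28 was the change in log2 implied length, which leaves 1.06 per length. From E18.5 to adult the log2 difference was 0.95 (adjusted p = 0.016, edgeR's quasi-likelihood test, under 2-fold), and 0.51 per length. With library size alone, the log2 differences of the counts over these intervals were 0.45 and -0.07, and neither was called.

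Partners of the complex were taken from lists of textbook members. Of 8 other complex genes tested, 6 were called from E18.5 to adult, 1 higher and 5 lower, against 44.9% of all genes called and 21.4% called higher. Their median log2 difference was -1.34. Library size alone gave 6 calls, all lower, against 45.6% of all genes called lower. The gene called higher was Drp2, a dystrophin-related protein of myelinating Schwann cells, at 1.2, which was not called with library size alone, at 0.17. Nos1 was higher by 1.83 and was not called by the quasi-likelihood test, but DESeq2 and edgeR's exact test each called it. With library size alone Nos1 was higher by 0.81 and not called. Those lower were led, among genes reaching 1 FPKM, by Sntb1, which encodes beta1-syntrophin, at -3.89, Sgce at -1.79 and Cav3, the muscle caveolin, at -1.42. Sntb1 FPKM was 34.26 at E18.5, 1.67 and 5.92 at PN14 and 1.13 in the adult. Drp2 FPKM was 2.91 and 5.95 in the PN14 libraries, the higher value being in the library with more Schwann cell marker RNA. Among dystrobrevins, Dtna took 91.2% of the summed FPKM with Dtnb at E18.5 and 95.2% in the adult, but the stages between differed more. The share of Dtnb was 9.71% at PN2, 2.22% and 2.71% at PN14 and 2.80% at PN28. From PN2 to PN14 the log2 difference of Dtnb was -1.37 with TMM scaling and -2.02 with library size alone, and it was called lower under either.

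Of 17 genes for the glycosylation of dystroglycan, which lets it bind laminin, 7 were called from E18.5 to adult, 6 higher and 1 lower. This compares with 44.9% of all genes called and 21.4% called higher. The median log2 difference of the 17 was 0.47. Library size alone gave 6 calls, 1 higher and 5 lower, against 7.98% and 45.6% of all genes. B3galnt2, which adds a sugar to the laminin-binding glycan, was higher by 2.92 and was still called at 1.89 with library size alone. Dpm1, a subunit of dolichol phosphate mannose synthase, was higher by 1.67, and Rxylt1, which adds a xylose to the glycan, by 1.35, and neither was called with library size alone. Gmppb, which makes GDP-mannose, was lower at -1.15.

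Of 10 genes for chains of laminins or for other ligands of dystroglycan, 6 were called from E18.5 to adult, all lower. This compares with 44.9% of all genes called in either direction. The median log2 difference of the 10 was -1.49. With library size alone 8 were called lower, against 45.6% of all genes. The largest among genes reaching 1 FPKM were Lamb1 at -3.11, Lama4 at -2.53 and Agrn, which encodes agrin, at -2.19. Lama2, the laminin alpha chain of the adult muscle basal lamina, had a log2 difference of -0.92 with an adjusted p of 0.030 by edgeR's quasi-likelihood test, under 2-fold, and was called lower at -1.95 with library size alone. Its FPKM of 26.16 at E18.5 and 6.78 in the adult compares with 99.18 and 5.66 for Lamb1. The summed FPKM of the fibroblast markers was also lower in the adult, as given above, and its part in these values was not tested. With TMM scaling, Dcn of that list was higher in the adult and the other markers were lower.

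Of 6 linkers between the complex and the cytoskeleton, 5 were called from E18.5 to adult, 3 higher and 2 lower. This compares with 44.9% of all genes called and 21.4% called higher. The median log2 difference of the 6 was 1.2. Library size alone gave 4 calls, 2 higher and 2 lower, against 7.98% and 45.6% of all genes. Synm, which encodes the intermediate filament protein synemin, had 4.11 FPKM at E18.5, 6.44 at PN2, 81.95 and 38.01 at PN14, 111.71 at PN28 and 275.36 at the adult stage, and its log2 difference was 7.05. Synm was thus above its perinatal level in every library from PN14 on. Krt19 was higher by 3.01, at 1.15 FPKM or less in every library, and Plec, which encodes plectin, by 1.41, which was not called with library size alone. Krt8, a keratin, was lower at -3.25 and Ank2, which encodes ankyrin-B, at -1.31. The share of partners called was 75% of the other complex genes, 41.2% of the glycosylation genes, 60% of the genes for laminin chains and other ligands and 83.3% of the linkers. The share of all genes was 44.9%.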

How the data were processed

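RNA-seq of mouse gastrocnemius was given for 6 libraries at 5 stages. The authors aligned reads to mm9 with TopHat2 2.0.5 and used RSEM to make the deposited expected counts, which are not normalized, and the deposited FPKM, normalized to transcript length and counts on genes, from RefSeq gene models. No column without a sample map was used.

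Expected counts were rounded and fitted in R 4.3.3 with edgeR 4.0.16 (TMM, filterByExpr, quasi-likelihood test, 5 stages as groups, 1 residual degree of freedom, Benjamini-Hochberg over 16882 genes). PN14 gave the spread (common biological coefficient of variation 0.188). Nothing says that stages other than PN14 vary alike. Calls needed an adjusted p under 0.05 and a log2 difference of 1 or more in size. DESeq2 1.42.0, library size alone, DESeq2 size factors, leaving out each PN14 library and other settings were alternatives. The division of Dtna counts by implied length was added after the data were seen. A count of 3 was 0.019 to 0.0239 CPM.

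The code was tested on simulated counts. In the simulated E18.5 to adult comparison over 16247 genes, 49 of 74 genes changed by 1.5 (log2), 57 of 61 changed by 2 and 65 of 65 changed by 3 were called. Of its 178 calls, 7 were of unchanged genes. Only 200 genes were changed and all others had the same mean at every stage. The simulation therefore does not test the effect of the shift in library composition on the scaling.

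The members and lists were chosen with earlier results of these data known. The members were named in every comparison. Of the partner lists, genes of at least 1 FPKM in a library could be named by role, and the 3 with the largest called change each way from E18.5 to adult were named with values, others being named for their family ratios or roles after their values were seen. The genes most like Dmd and Utrn were the 5 with the highest Pearson correlation of log2(CPM + 0.1) among genes reaching 10 FPKM. The partner lists were the other complex genes (Sgcz and Sntg1 did not pass the filter), glycosylation, ligands and linkers. RefSeq windows were matched by symbol. Some list genes are not reported here, and counts, sums and shares leave them out.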

Additional observations from a re-analysis of the deposited data

How the results depend on the processing

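The results depended mostly on scaling. With DESeq2 size factors, 47 of 48 log2 differences of members (8 genes, 6 comparisons) kept their direction and their side of the threshold, the exception being Dmd from PN28 to adult at -0.00196. With library size alone, 25 kept both, 3 were no longer called, 8 became called and 12 changed sign. This scaling moves all genes of a comparison nearly alike, so small differences had to change sign and the count says nothing particular about the members. Those that changed sign were Dmd at -0.34 (PN2 to PN14), -0.13 (PN28 to adult) and -0.0708 (PN2 to PN28), Sgca at -0.0631 (PN28 to adult), Sgcb at -0.0156 (PN14 to PN28) and -0.33 (E18.5 to adult), Sgcd at -0.23 (E18.5 to adult) and -0.83 (PN2 to PN28), Dtna at -0.0714 (E18.5 to adult), and Sspn at -0.31 (PN2 to PN14), -0.22 (PN14 to PN28) and -0.53 (PN2 to PN28). Library size alone called 2 members from PN2 to PN14 (Sgcd and Utrn, lower), 1 from PN28 to adult (Sspn, lower) and 4 from E18.5 to adult. DESeq2 and edgeR's exact test each called 1 member, Sspn, from PN28 to adult. Adjusted p alone gave 2 members from PN2 to PN14 (Dtna and Sgca) and 4 from E18.5 to adult (Dmd, Dtna, Sgca and Sgcd), since the 2-fold limit was dropped. The shares of all genes under DESeq2, edgeR's exact test and adjusted p alone were not counted. Those numbers of members therefore have no background beside them.

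Without a test, 1 member had at least a 2-fold difference from PN2 to PN14 with TMM scaling, 2 with library size alone and 2 with deposited FPKM (Utrn and Sgcd in each). The share of all genes was not counted in this way. Leaving out a PN14 replicate gave 1 to 2 members, the 2 being Sgca and Dtna without the second, and a ratio of Dmd to Utrn of 1.47 to 2.62 at PN14. Leaving out a PN14 library leaves no residual degree of freedom, so these are values with no test. No paired analysis was possible because replicate numbers were given for PN14 alone. With 1 library at each other stage, the spread between mice of those stages was not measured.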

Other observations

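Over the 6 libraries and 6917 genes, the patterns most like that of Dmd on log2 TMM-scaled CPM were those of Ccnyl1 (Pearson's r = 0.994), Uso1 (0.993), Capn1 (0.992), Tcap (0.991) and Tarsl2 (0.990). Capn1 encodes a calpain protease and Tcap the titin cap protein of the Z-disc. The patterns most like that of Utrn were those of Smap1 (0.995), Hddc2 (0.995), Sppl3 (0.994), Ext1 (0.989) and Strn4 (0.989). Ext1 encodes a glycosyltransferase that builds heparan sulfate. These correlations rest on 6 points that share the shift in library composition, and they do not take in the size of a change. From E18.5 to adult, Tcap FPKM went from 130.51 to 3440.68 and Ccnyl1 FPKM from 10.43 to 6.97, beside 12.17 and 14.13 for Dmd.

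Among the members, the correlation on the same scale was highest between Sgca and Dtna (r = 0.944) and between Dmd and Sgca (0.937), and lowest between Utrn and Dtna (-0.92). Dmd and Utrn had -0.87 over the 6 libraries, and Dmd and Sspn had -0.03.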
